A study of Homo sapiens with 6 samples.

Results

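The genes described here encode the subunits of the mitochondrial respiratory chain and of ATP synthase. They were taken by gene symbol: NDUFA, NDUFB, NDUFC, NDUFS and NDUFV genes for complex I, SDHA to SDHD for complex II, UQCR genes and MT-CYB for complex III, COX4 to COX8 genes and MT-CO genes for complex IV, ATP5 and MT-ATP genes for complex V, and MT-ND genes for complex I. Of 34114 genes in the table, 140 had such a symbol. Of these, 44 were left out because the symbol marks a pseudogene, and 3 because their mean normalized count over the libraries was under 10. This left 93 genes, 80 encoded in the nucleus and 13 in mitochondrial DNA, the full protein-coding set of that genome. Complex I is represented by 37 nuclear and 7 mitochondrial genes, complex II by 4 nuclear genes, complex III by 8 and 1, complex IV by 13 and 3, and complex V by 18 and 2. The symbols carry a few exceptions. NDUFA4 is named for complex I but its product is now placed in complex IV, COX7A2L encodes a supercomplex factor, and ATP5S, ATP5SL and ATP5L2 are not established subunits.

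The libraries are mRNA profiles (TruSeq RNA v2 kit, known to select polyadenylated RNA) of 3 human acute myeloid leukemia cell lines, namely NOMO-1, SKM-1 and MOLM-14. MOLM-14 and NOMO-1 are known to carry the KMT2A::MLLT3 fusion. Each line received either a scrambled control shRNA or an shRNA against NCAM1, the neural cell adhesion molecule CD56, and was sampled at 72 h. Each line and condition has 1 library, so the line serves as the replicate (3 control and 3 NCAM1 shRNA libraries), and a difference within a line has no replicate check. Whether 1 hairpin was used throughout is not stated in the labels. The deposited columns carry the tag sh59 for MOLM-14 and NOMO-1 and sh59a for SKM-1, so a different hairpin in SKM-1, if that is what the tag marks, cannot be told apart from the line. The question set by the design is how transcripts differ when NCAM1 is depleted.

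The respiratory chain passes electrons from NADH through complex I, or from succinate through complex II, by way of ubiquinone, complex III and cytochrome c to complex IV, which reduces oxygen. Complexes I, III and IV pump protons across the inner membrane and complex V, the ATP synthase, uses the gradient to make ATP. Complex II is encoded wholly in the nucleus, while the other complexes join nuclear subunits to a few subunits translated inside the mitochondrion. Mitochondrial DNA is copied into long transcripts from each strand, which are cut at the tRNAs between the genes. Acute myeloid leukemia cells, their stem-like fraction above all, have been described as reliant on oxidative phosphorylation.

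Depth ranged from 41916991 to 47688779 gene reads per library. NCAM1 itself was lower in every NCAM1 shRNA library, at 6004 and 1896 normalized counts (control, then NCAM1 shRNA) in MOLM-14, 1163 and 312 in NOMO-1, and 12537 and 101 in SKM-1. Its fold difference was by far the largest in SKM-1, and the extent of depletion cannot be told apart from the line. The common leukocyte gene PTPRC and the myeloid genes CD33 and SPI1 were detected in all libraries. The summed level of the 7 myeloid markers ranged from 40188 to 761488 normalized counts in the control libraries and from 34086 to 52575 in the NCAM1 shRNA libraries. The top of that range is MPO, the granule peroxidase, at 728824 in the SKM-1 control library and 6166 in the SKM-1 NCAM1 shRNA library. Without MPO the sum ranged from 32664 to 42944 in control and from 30164 to 44394 in NCAM1 shRNA libraries. The 12 markers of other cell types that were in the table summed to between 393 and 5257 normalized counts in controls and between 614 and 6040 after NCAM1 shRNA, with the highest sums in NOMO-1, where the T cell gene CD3D stood at 3789 and 2961. None of the 12 was at 0 in all libraries, and their part in the results below was not tested. The SKM-1 libraries thus differ widely beyond the respiratory genes, and with 1 library per condition that gap and the NCAM1 shRNA cannot be told apart. In bulk RNA, fewer cells of a type and less RNA per cell cannot be told apart either.

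Some sequences show how these genes are laid out and read. MT-ATP8 and MT-ATP6, the mitochondrial subunits of ATP synthase, overlap by 46 bases, which are 22.2% of the 207 bases of MT-ATP8. A read from those bases fits both genes and may have been assigned to either or to neither. MT-ND4L and MT-ND4 of complex I overlap by 7 bases. The overlaps lie at positions MT:8527-8572 and MT:10760-10766 of the mitochondrial sequence in GENCODE v29 on GRCh38, on the plus strand. Capitals mark the start codon of the second gene and the stop codon of the first.
MT-ATP8/MT-ATP6: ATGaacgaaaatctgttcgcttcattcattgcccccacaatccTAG
MT-ND4L/MT-ND4: ATGcTAA

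Among nuclear genes, RefSeq promoters (GRCh38.p14) were matched for 64 of 80 members. The 250 bases before the start site were searched on both strands for letters of factors known to act on respiratory genes. The NRF1 core GCGCATGC was present in 12 of 64 members (18.75%), against 3.70% of 15843 promoters, and the ETS site CCGGAAG, the kind of site GABP binds, in 16 (25.0%), against 11.8%. Either of them was present in 23 (35.9%), against 14.8% of all promoters. The YY1 site AAGATGGC (1 of 64, 1.56%, against 1.39%), the CCAAT box (32.8% against 34.5%) and the TATA box TATAAA (9.38% against 9.23%) were at the share of all promoters. The stretches around the matches are shown for the 4 members with a match that were lowest in SKM-1 after NCAM1 shRNA relative to control. NDUFB4 and SDHD, which were higher, are shown as well. COX7C, COX7B and NDUFA3, which were lower in SKM-1 than these 4, had neither site. Capitals mark the NRF1 core or the ETS site, on whichever strand it lies, each printed in the direction of the gene.
ATP5G2 (chr12:53676086-53676153, minus strand): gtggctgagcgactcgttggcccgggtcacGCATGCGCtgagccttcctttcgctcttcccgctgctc
UQCRQ (chr5:132866558-132866624, plus strand): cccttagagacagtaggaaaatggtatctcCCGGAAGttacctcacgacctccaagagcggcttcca
NDUFA1 (chrX:119871755-119871821, plus strand): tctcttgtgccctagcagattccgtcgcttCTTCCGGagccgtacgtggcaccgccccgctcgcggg
COX6B1 (chr19:35648281-35648322, plus strand): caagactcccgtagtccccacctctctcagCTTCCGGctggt
NDUFB4 (chr3:120596147-120596216, plus strand): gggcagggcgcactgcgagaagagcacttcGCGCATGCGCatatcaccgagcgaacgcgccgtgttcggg
SDHD (chr11:112086733-112086832, plus strand): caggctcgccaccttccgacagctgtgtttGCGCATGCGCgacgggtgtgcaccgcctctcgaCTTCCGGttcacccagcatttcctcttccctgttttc

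The matches did not sort the genes by their difference after NCAM1 shRNA. The 23 members with an NRF1 core or ETS site had a median log2 difference of -0.22 in SKM-1 and the 41 without had -0.36. For NOMO-1 both medians were 0.21, and for MOLM-14 they were 0.12 and 0.14. A match is a stretch of letters, and no binding was measured.

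No respiratory chain gene passed limma's test of NCAM1 shRNA against control over the 3 lines. With limma on log2(normalized count + 1) and the cell line as a block, 0 of 93 members were called at an adjusted p under 0.05 over the 19575 genes tested, where 0.0% of all genes were called. The smallest adjusted p among members was 0.779. Unadjusted p was under 0.05 for 1 member, COX6B2, and for 877 genes (4.48%). edgeR called 0 genes and DESeq2 called 43 genes, none of them a member, with 1 and 0 members at an unadjusted p under 0.05. The lines differed in direction, and the values below are therefore given line by line. A pair of values is the control and then the NCAM1 shRNA library, in normalized counts, and where 3 pairs stand without names they follow the order MOLM-14, NOMO-1, SKM-1.

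Most members stood higher in the NCAM1 shRNA library than in the control in MOLM-14 and NOMO-1, and lower in SKM-1. In MOLM-14, 76 of 93 members were higher in the NCAM1 shRNA library by any amount, beside 48.4% of all genes, with a median log2 difference of 0.12. In NOMO-1, 72 were higher, beside 49.0% of all genes, with a median of 0.20. In SKM-1, 27 were higher, beside 48.0%, with a median of -0.22. The medians of all genes tested were 0.00 in MOLM-14 and NOMO-1 and -0.01 in SKM-1. For 62 members the NCAM1 shRNA library was higher in both MOLM-14 and NOMO-1, beside 28.6% of all genes, and for 42 it was also lower in SKM-1, beside 13.7%. Members of a line share 1 pair of libraries and 1 scaling, so these counts describe 3 library pairs and are not 93 separate observations.

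The sizes were small in MOLM-14 and NOMO-1. In MOLM-14, 1 member, UQCRQ, was higher by 1.5-fold or more (8.04% of all genes) and 1, COX6B2, was lower (9.15%). In NOMO-1, 6 were higher by 1.5-fold or more (12.1%) and 2, NDUFV2 and COX6B2, lower (16.8%). In SKM-1, 23 were lower by 1.5-fold or more, which at 24.7% of members is near the 27.4% of all genes, while 2, NDUFS8 and COX7A2L, were higher, beside 25.3% of all genes. The members are abundant, and among the 7742 genes with a mean of 1000 or more the shares higher and lower by 1.5-fold were 1.33 and 3.14% in MOLM-14, 5.79 and 11.4% in NOMO-1, then 20.5 and 22.5% for SKM-1. Beside these, the members' shares higher by that much were 1.08% in MOLM-14 and 6.45% in NOMO-1, near those of other abundant genes, and 2.15% for SKM-1. A total of 20 members were higher in all 3 lines (14.6% of all genes) and 7 were lower in all 3 (15.9%). The 7 are NDUFA13, NDUFV2, UQCRC1, COX6B2, ATP5B, ATP5SL and MT-CO1, named here because their number is small.

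With the SKM-1 pair left out, limma's fit of MOLM-14 and NOMO-1 gave 8 members higher and 1 lower at an unadjusted p under 0.05, beside 451 and 938 of all 19575 genes. Both directions together, these were 9.68% of members and 7.10% of all genes. The smallest adjusted p was 0.665 for members, so none was called in that fit either. The median log2 difference of the 80 nuclear members over the 2 lines was 0.18, against 0.04 over all 3 lines.

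**Figure D1:**
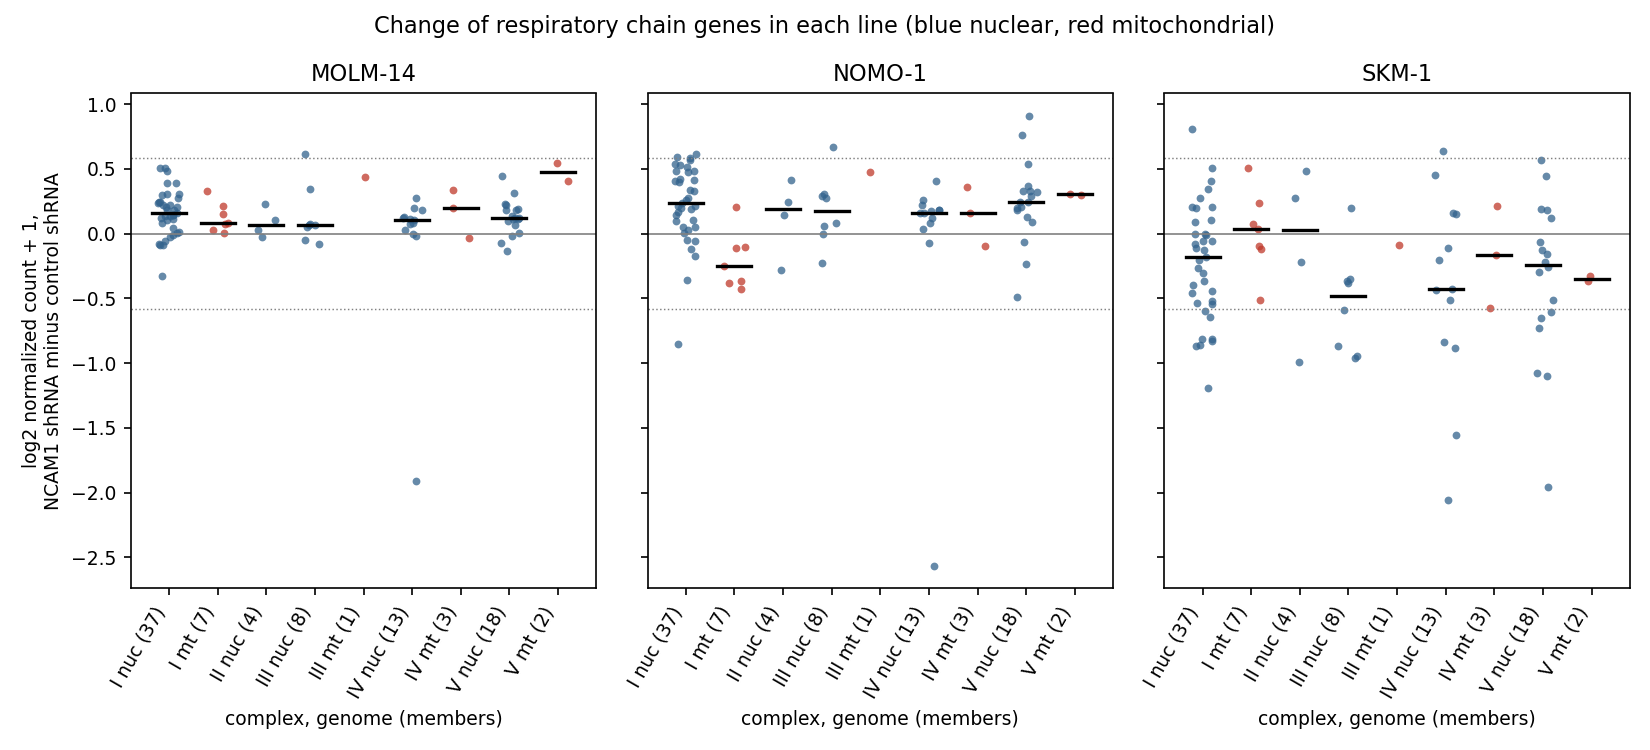
Log2 difference of normalized count + 1 (NCAM1 shRNA minus control shRNA) for each of the 93 genes, by complex and genome (nuc, nuclear; mt, mitochondrial; number of genes in brackets), in 1 panel per line. Bars are medians, dotted lines are 1.5-fold. Nuclear medians sit above 0 in MOLM-14 and NOMO-1, while in SKM-1 those of complexes I, III, IV and V sit below 0; the lowest point in MOLM-14 and NOMO-1 is COX6B2, a gene with few reads.

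Complex I takes electrons from NADH and is the largest complex. Its 37 nuclear genes had median log2 differences of -0.18 in SKM-1 (10 of them higher), 0.16 in MOLM-14 (30 higher) and 0.24 in NOMO-1 (31 higher). The 7 nuclear genes of the catalytic core had smaller medians than the accessory genes, at 0.02 for MOLM-14, 0.15 for NOMO-1 and -0.08 for SKM-1, and summed to 29037 and 29573 normalized counts in SKM-1 (control, then NCAM1 shRNA). The 30 accessory genes had medians of 0.20, 0.27 and -0.28, in the same order, and summed to 75766 and 64274 in SKM-1. The difference between core and accessory genes was not tested.

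NDUFS8, a core iron-sulfur subunit, stood at 1374 and 1506 normalized counts in MOLM-14 (control, then NCAM1 shRNA), at 1507 and 2156 in NOMO-1 and at 1526 and 2672 in SKM-1. It was higher after NCAM1 shRNA in all 3 lines and all 3 NCAM1 shRNA values but MOLM-14's exceeded every control value, the mean log2 difference being 0.49 ± 0.34 (SD, n = 3 lines; limma adjusted p = 0.779). In SKM-1 the 1.75-fold difference has a counting interval of 1.64 to 1.86 (exact, 95%). NDUFC2, an accessory subunit of the membrane arm, was also higher in each line, at 240 and 290 in MOLM-14, 310 and 460 in NOMO-1 and 353 and 502 in SKM-1, a mean log2 difference of 0.45 ± 0.15 (SD, n = 3; limma adjusted p = 0.779). It shares 16.3% of its exon bases with other genes on its strand, where reads may not be assigned.

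NDUFV3, an accessory subunit of the NADH-oxidizing module, differed little within lines: 1613 and 1748 in MOLM-14, 864 and 990 in NOMO-1, 2748 and 2923 in SKM-1. The lines themselves are well apart in this gene, and that contrast is taken up further on. NDUFA3, an accessory subunit, was the member of complex I furthest down in SKM-1, from 1360 in control to 595 after NCAM1 shRNA, and went from 846 to 897 in MOLM-14 and from 1045 to 1264 in NOMO-1. The SKM-1 control value was 2.29-fold the NCAM1 shRNA value (2.08 to 2.51, exact 95% counting interval). NDUFA1, a small membrane subunit encoded on chromosome X, showed the same order, at 1797 and 1936, 2435 and 2487, then 3820 and 2094 in SKM-1. The others lower by 1.5-fold or more in SKM-1 were NDUFA9, NDUFA12, NDUFB5, NDUFB9, NDUFC1 and NDUFS7, between -0.60 and -0.86 on the log2 scale.

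In MOLM-14 and NOMO-1 the subunits furthest apart were others. NDUFA2, an accessory subunit of the NADH-oxidizing module, stood at 397 and 565 in MOLM-14, 478 and 632 in NOMO-1 and 771 and 585 in SKM-1. NDUFB2, of the membrane arm, was higher by 0.62 on the log2 scale in NOMO-1, where it went from 390 to 599, against 755 and 859 in MOLM-14 and 1042 and 1123 in SKM-1. NDUFV2, a core iron-sulfur subunit, was the furthest down in NOMO-1 among members with 100 or more normalized counts in at least 1 library, from 161 to 88.5, beside 137 and 132 in MOLM-14 and 119 and 103 in SKM-1. NDUFA13 was lower in every line, at 180 and 143, 62.3 and 48.4, and 61.0 and 50.5, but each line's counting interval for its ratio includes 1. NDUFS1, the largest core subunit, was among the 3 furthest down in MOLM-14 by the same minimum, with 7506 and 7046.

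Complex II, succinate dehydrogenase, also works in the citric acid cycle. SDHA, its flavoprotein, stood at 9048 and 9246 in MOLM-14, 12439 and 10248 in NOMO-1 and 7506 and 3781 in SKM-1. SDHB, the iron-sulfur subunit, stood at 3515 and 4123, 3799 and 5066, and 4265 and 3664. SDHC, a membrane anchor, stood at 3138 and 3374, 2246 and 2656, and 3925 and 5481. The other anchor, SDHD, stood at 4056 and 3990, 2939 and 3241, and 2542 and 3084. In SKM-1, therefore, the flavoprotein was 1.99-fold lower (1.91 to 2.06, exact 95% counting interval) while both anchors were higher, SDHC by 1.40-fold and SDHD by 1.21-fold. SDHA counts per SDHB count were 2.57 and 2.24 in MOLM-14 (control, then NCAM1 shRNA), 3.27 and 2.02 in NOMO-1 and 1.76 and 1.03 in SKM-1, lower after NCAM1 shRNA in each line. No complex II gene passed limma's test, with adjusted p of 0.779 for SDHA and SDHC.

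Complex III passes electrons from ubiquinol to cytochrome c. Its 8 nuclear genes had the lowest median of the complexes in SKM-1, -0.48, with 1 higher, and medians of 0.07 in MOLM-14 and 0.18 in NOMO-1. Their summed count in SKM-1 was 1.49-fold higher in control than after NCAM1 shRNA. UQCRQ, a small accessory subunit, had opposite differences: it stood at 1173 and 1802 in MOLM-14 and at 1386 and 2201 in NOMO-1, but at 2112 and 1099 in SKM-1. It was the member furthest up in MOLM-14 (1.54-fold, 1.42 to 1.66) and among the 3 furthest up in NOMO-1 (1.59-fold, 1.49 to 1.70), and the SKM-1 control was 1.92-fold its partner (1.79 to 2.07; exact 95% counting intervals). UQCRFS1, the Rieske iron-sulfur protein, was lower in SKM-1 and higher by less than 1.5-fold in the other lines, at 5347 and 5641, 4183 and 5062, and 6139 and 3152.

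UQCRB, which helps bind ubiquinone, stood at 10422 and 10092 in MOLM-14, 9411 and 9801 in NOMO-1 and 11626 and 6384 in SKM-1. UQCRC1, a core protein of the matrix side, was lower in all 3 lines, at 7253 and 6874, 8332 and 7122, and 9191 and 7213, a mean log2 difference of -0.22 ± 0.14 (SD, n = 3; limma adjusted p = 0.779). Its partner UQCRC2 stood at 10782 and 11293, 13468 and 13438, and 10668 and 8271. CYC1, the cytochrome c1 of the same complex, has a symbol outside the rule, and stood at 9805 and 8827, 11715 and 10837, and 14560 and 5588. The SKM-1 difference in this complex thus includes the Rieske protein and cytochrome c1, the redox subunits encoded in the nucleus.

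Complex IV, cytochrome c oxidase, had nuclear medians of -0.42 in SKM-1, 0.10 in MOLM-14 and 0.16 in NOMO-1. COX7C and COX7B, small subunits of the membrane part, held the largest differences of all members in SKM-1 together with ATP5B. COX7C stood at 5645 and 6393 in MOLM-14, 5878 and 5578 in NOMO-1 and 6743 and 1620 in SKM-1, where the control was 4.16-fold higher (3.95 to 4.39, exact 95% counting interval). COX7B stood at 3651 and 3645, 4573 and 4695, and 7003 and 2379, a 2.94-fold difference in SKM-1 (2.81 to 3.08). In the other lines neither gene differed by more than 1.13-fold. COX6B1 (8538 and 4779) and COX6C (9204 and 4992) were also lower by over 1.5-fold in SKM-1 alone.

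COX7A2, another small subunit, differed little, at 5588 and 5905, 4935 and 5613, and 4688 and 5211. COX7A2L, which helps complexes III and IV join into supercomplexes, stood at 5694 and 5618 in MOLM-14, 2871 and 3812 in NOMO-1 and 6023 and 9393 in SKM-1, so that it was higher in SKM-1 by 1.56-fold (1.51 to 1.61, exact 95% counting interval). COX4I1, the largest nuclear subunit, differed by at most 1.15-fold in any line (12119 and 12331, 9590 and 10732, 11103 and 9651). In SKM-1, nuclear members named for this 1 complex therefore spanned log2 differences from -2.06 to 0.64.

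Tissue-specific isoforms were low in all libraries. Per kb of transcript, the heart and muscle isoform COX7A1 had a mean level of 25.1 normalized counts against 11091 for COX7A2, and the testis isoform COX6B2 had 6.82 against 10825 for COX6B1. COX6B2 rested on 6 and 1 reads in MOLM-14, 51 and 8 in NOMO-1 and 3 and 2 in SKM-1. It was lower in all 3 lines, with a mean log2 difference of -1.66 in limma's fit (SE 0.58, unadjusted p = 0.0361, adjusted p = 0.779), the lowest p of any member. COX6B2 is also the member nearest to the limit of a mean of 10, at 11.3, followed by COX7A1 at 14.7 and ATP5L2 at 23.2. Just outside were COX8C at 3.15, COX6A2 at 0.918 and the read-through gene ATP5J2-PTCD1 at 0.794.

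Complex V had nuclear medians of -0.24 in SKM-1, 0.12 in MOLM-14 and 0.25 in NOMO-1. ATP5A1 and ATP5B encode the alpha and beta subunits, which alternate in equal number in the catalytic head. ATP5B stood at 53562 and 48876 in MOLM-14, 39656 and 33751 in NOMO-1 and 24354 and 6280 in SKM-1, lower in each line and 3.88-fold higher in the SKM-1 control than in its NCAM1 shRNA partner (3.78 to 3.98, exact 95% counting interval). ATP5A1 stood at 29321 and 33312, 32404 and 37071, and 34984 and 30000. ATP5B counts per ATP5A1 count were therefore 1.83, 1.22 and 0.696 in the controls and 1.47, 0.910 and 0.209 after NCAM1 shRNA. This pair was compared after its values were seen. limma's mean log2 difference for ATP5B was -0.77 ± 1.02 (SD, n = 3 lines; adjusted p = 0.779).

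The c-ring that turns in the membrane is built from 1 protein whose mature form is encoded by each of ATP5G1, ATP5G2 and ATP5G3. ATP5G2 stood at 15247 and 16525 in MOLM-14, 12341 and 11783 in NOMO-1 and 10373 and 4846 in SKM-1. ATP5G3 stood at 7396 and 8144, 11906 and 13043, and 9275 and 8509, and ATP5G1 at 2297 and 2861, 1866 and 2717, and 3789 and 2280. In SKM-1 the share of ATP5G2 in the summed count was 44.3% in control, above that of ATP5G3 at 39.6%, while after NCAM1 shRNA ATP5G3 led with 54.4%, and the sum itself was 23437 and 15635. In MOLM-14 the shares differed by under 1.5 percentage points between the libraries, and the ATP5G2 share was 47.3% and 42.8% in NOMO-1.

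ATP5E, the epsilon subunit of the central stalk, was the member with 100 or more counts furthest up in NOMO-1, at 4793 and 8135 (1.70-fold, 1.64 to 1.76), beside 5163 and 6015 in MOLM-14 and 9311 and 10565 in SKM-1. Its mean log2 difference was 0.39 ± 0.33 (SD, n = 3; limma adjusted p = 0.779). ATP5C1, the gamma subunit of the same stalk, stood at 4944 and 6743, 10443 and 13445, and 8995 and 5925, higher in MOLM-14 and NOMO-1 and lower in SKM-1. ATP5SL, not a synthase subunit despite its name, was lower in each line, at 3341 and 3183, 2279 and 1619, and 4449 and 2114.

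**Figure D2:**
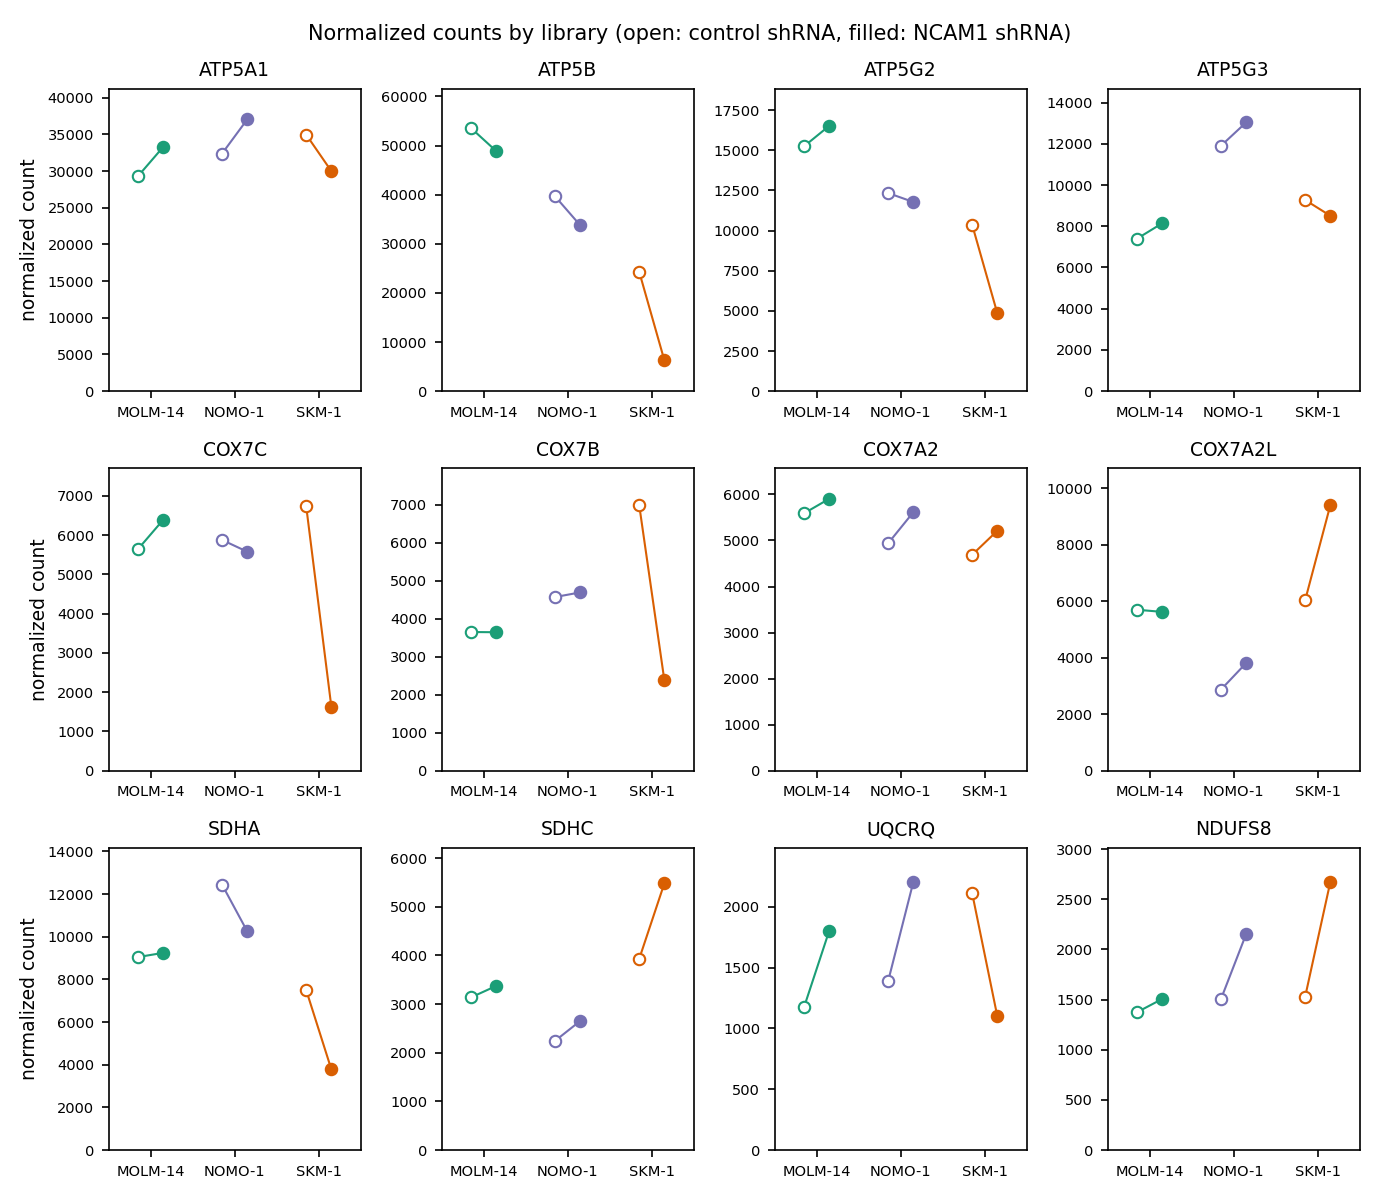
Normalized counts (linear axis from 0) of 12 genes in the 6 libraries, with a line joining the control shRNA library (open) and the NCAM1 shRNA library (filled) of each cell line. ATP5B, COX7C, COX7B, ATP5G2 and SDHA are much lower after NCAM1 shRNA in SKM-1 while ATP5A1, ATP5G3 and COX7A2 stay near their control level and COX7A2L, SDHC and NDUFS8 are higher; UQCRQ goes up in MOLM-14 and NOMO-1 and down in SKM-1.

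The 13 mitochondrially encoded genes took 5.40 to 8.30% of all gene reads, while the 80 nuclear ones took 0.668 to 0.910%. Per kb of transcript the mitochondrial genes ranged from 78456 normalized counts for MT-ND6 to 548234 for MT-CO2, with a median of 182838, against a median of 3524 for nuclear members. Reads of the mitochondrial genes per read of the nuclear genes were 7.21 and 7.64 in MOLM-14, 9.38 and 8.64 in NOMO-1 and 9.82 and 12.1 in SKM-1. The log2 difference of this ratio between NCAM1 shRNA and control was 0.08, -0.12 and 0.30, a mean of 0.09 ± 0.21 (SD, n = 3 lines), so that it was smaller than the spread between lines. In SKM-1 the nuclear sum was 374920 and 292349 normalized counts (1.28-fold lower) while the mitochondrial sum was 1.04-fold lower.

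**Figure D3:**
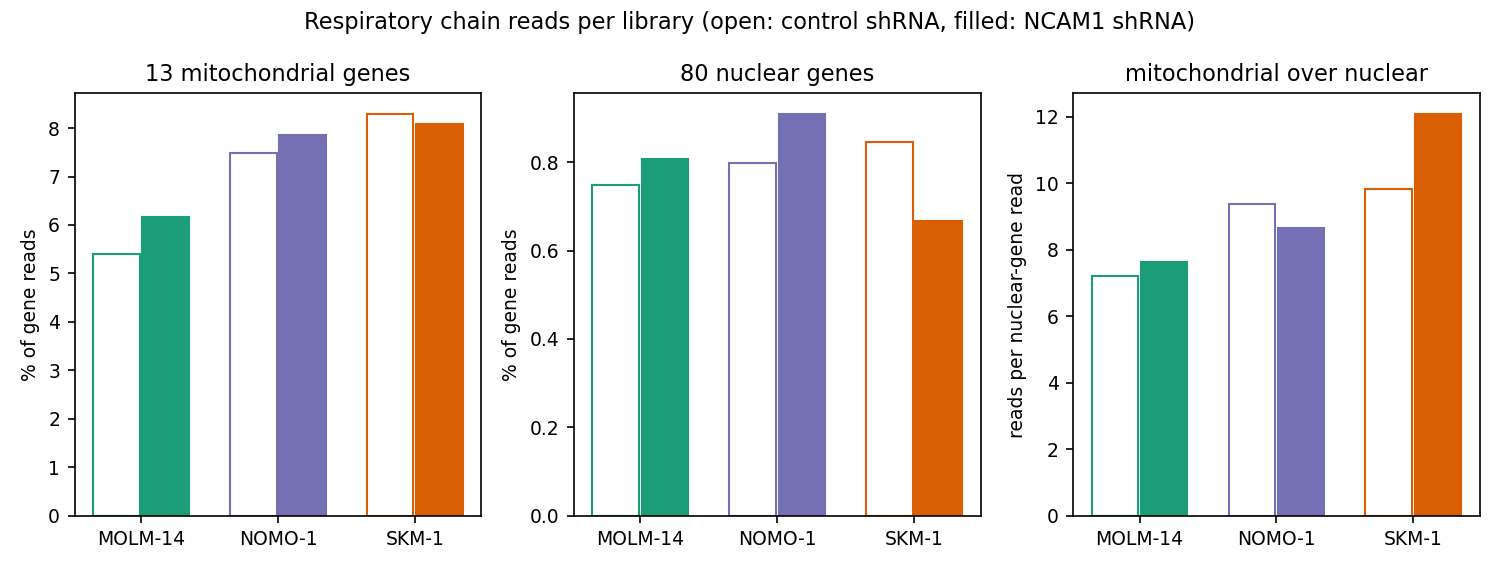
Share of gene reads (%) taken by the 13 mitochondrial and the 80 nuclear genes, and mitochondrial reads per nuclear-gene read, in each library (bars from 0; open control shRNA, filled NCAM1 shRNA, 1 library per bar). The nuclear share is higher after NCAM1 shRNA in MOLM-14 and NOMO-1 and lower in SKM-1, at 0.845 and 0.668%, where the ratio stands at 9.82 and 12.1.

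None of the 13 mitochondrial genes differed by 1.5-fold within any line, and none was called by limma. Their medians were 0.20 in MOLM-14 (12 of 13 higher), -0.10 in NOMO-1 (6 higher) and -0.10 in SKM-1 (5 higher). A stretch of 3 adjacent genes had differences of like sign within each line, but MT-ATP8 and MT-ATP6 overlap and are not separate observations. MT-ATP8 stood at 14793 and 21596 in MOLM-14, 25474 and 31343 in NOMO-1 and 25625 and 19851 in SKM-1. MT-ATP6, which shares the 46 bases shown above with it, stood at 191972 and 254932, 341053 and 421406, and 365072 and 290970. MT-CO3, next to MT-ATP6, stood at 267265 and 336721, 348590 and 446915, and 386743 and 259460. These 3 adjacent genes, of ATP synthase and cytochrome c oxidase, were higher in MOLM-14 and NOMO-1 and lower in SKM-1.

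The other mitochondrial genes of complexes III and IV had their own patterns. MT-CYB, the cytochrome b of complex III, stood at 142898 and 193757 in MOLM-14, 121771 and 169658 in NOMO-1 and 310476 and 292477 in SKM-1. MT-CO1, the catalytic subunit of complex IV and the most abundant member, stood at 602935 and 590008, 689347 and 644874, and 879825 and 785195, lower in each line. With scaling by total counts the MOLM-14 difference of MT-CO1 was 0.00, so its direction there depends on the scaling. MT-CO2, which receives electrons from cytochrome c, was higher in each line, at 238314 and 273075, 357936 and 400008, and 454204 and 526413, with a mean log2 difference of 0.19 ± 0.03 (SD, n = 3; limma adjusted p = 0.779).

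The complex I genes of the mitochondrial genome were spread around 0. MT-ND2 stood at 136426 and 171188 in MOLM-14, 181152 and 168841 in NOMO-1 and 199344 and 283106 in SKM-1, its 1.42-fold difference being the largest upward one of a mitochondrial gene in SKM-1. MT-ND1, its neighbour, stood at 192706 and 203072, 155324 and 143883, and 174675 and 179096. MT-ND3 stood at 25646 and 29718, 23946 and 27584, and 34659 and 31845. These 3 genes show no order that the lines share.

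The overlapping pair MT-ND4L (43917 and 48832, 78877 and 61230, 59962 and 70460) and MT-ND4 (394845 and 417370, 683524 and 575168, 570517 and 600461) was lower in NOMO-1 and higher in MOLM-14 and SKM-1. MT-ND5 stood at 219907 and 223789, 172931 and 132848, and 177933 and 166560. MT-ND6, the 1 member read from the other strand, stood at 50504 and 50662 in MOLM-14, 41550 and 30916 in NOMO-1 and 43204 and 30299 in SKM-1, lower in the latter lines by 0.43 and 0.51 on the log2 scale. As no source used here states the strand setting of the counting, MT-ND6 reads cannot be told apart from reads of the opposite strand there. In NOMO-1 the 7 mitochondrial genes of complex I had a median of -0.25 while the 37 nuclear ones had 0.24. This gap was not tested.

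**Figure D4:**
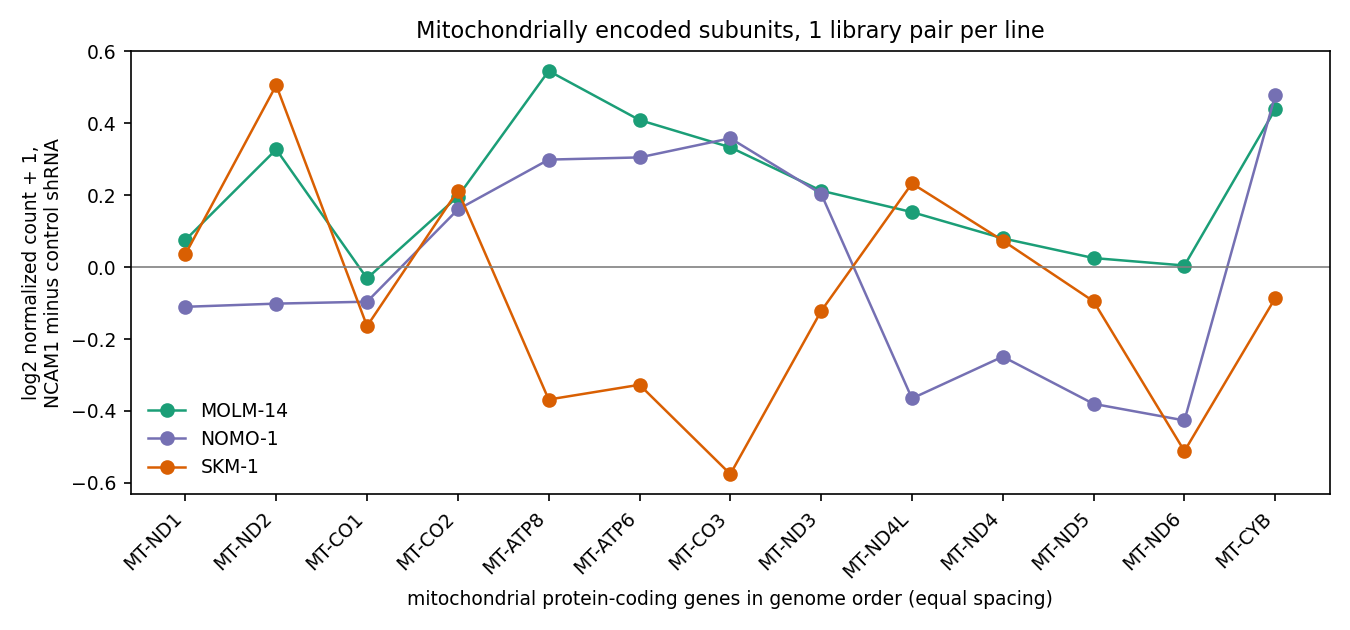
Log2 difference of normalized count + 1 (NCAM1 shRNA minus control shRNA) for the 13 mitochondrial protein-coding genes in genome order, 1 line per cell line; spacing is equal and not to scale. MT-ATP8, MT-ATP6 and MT-CO3 are above 0 in MOLM-14 and NOMO-1 and below 0 in SKM-1, from 0.55 for MT-ATP8 in MOLM-14 to -0.58 for MT-CO3 in SKM-1.

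Between the cell lines, limma called few respiratory chain genes, and the number depended on the tool and the libraries. In limma's contrast of SKM-1 against the mean of MOLM-14 and NOMO-1, 3 of 93 members were higher (7.94% of all genes) and 0 were lower (8.69% of all genes). For MOLM-14 against NOMO-1, 2 were higher (5.42%) and 0 lower (8.04%). Of the 7742 genes with a mean of 1000 or more, limma called 400 higher and 501 lower in the SKM-1 contrast. In the other contrast it called 412 and 324 of them. Unadjusted p was under 0.05 for 23 and 21 members (24.7 and 22.6%), beside 34.1 and 30.9% of all genes. The median absolute log2 difference was 0.29 for members and 0.57 for all genes in the SKM-1 contrast, and 0.40 and 0.60 in the other. Among the 7742 genes with a mean of 1000 or more these medians were 0.40 and 0.41, so for MOLM-14 against NOMO-1 the members were like other abundant genes. These counts rest on 2 libraries per line and varied with the tool: DESeq2 gave 11 higher and 7 lower in SKM-1 and 4 and 3 in MOLM-14, edgeR only NDUFV3 and ATP5D. Over all genes DESeq2 called 12.9% higher and 11.5% lower in SKM-1, and 9.15 and 11.8% in MOLM-14. For edgeR these shares were 7.20 and 5.97%, then 4.10 and 6.22%.

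NDUFV3 was higher in SKM-1 by 1.19 on the log2 scale (SE 0.18, limma adjusted p = 0.0181). Its SKM-1 values, 2748 and 2923, lay above all others, MOLM-14 had 1613 and 1748, and NOMO-1 was lowest with 864 and 990. MT-CYB was higher in SKM-1 by 0.96 (SE 0.19, adjusted p = 0.0347 in limma), with 310476 and 292477 against 121771 to 193757 elsewhere. MT-CO2 was higher by 0.65 (SE 0.15, limma adjusted p = 0.0468) and its lines are ordered MOLM-14, NOMO-1, SKM-1 without overlap. These 2 were the mitochondrial genes that limma called. MT-ND2 (199344 and 283106), MT-CO1 (879825 and 785195) and MT-ND3 (34659 and 31845) also lay above all other libraries in both SKM-1 libraries and were not called. The call of MT-CO2 was lost with a pseudocount of 8, a mean of 50, no filter, no trend and edgeR (adjusted p of 0.0600 to 0.131 from limma and edgeR), and that of MT-CYB with no filter, no trend and edgeR (0.0522 to 0.0877).

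ATP5D, the delta subunit of the central stalk, was higher in MOLM-14 than in NOMO-1 by 1.36 (SE 0.23, limma adjusted p = 0.0276), at 4803 and 5235 against 1798 and 2133. SKM-1, at 2188 and 1825, overlapped NOMO-1. COX7A1 was higher in MOLM-14 by 2.25 (SE 0.48, limma adjusted p = 0.0471), but on 24 and 28 reads against 5 and 6. The call of ATP5D was lost with no trend (limma adjusted p = 0.0623). That of COX7A1 was lost with a pseudocount of 0.5, no filter and either total-count scaling (limma adjusted p of 0.0518 to 0.0691). Neither edgeR nor DESeq2 called COX7A1 (adjusted p of 0.0506 and 0.128). ATP5B missed limma's threshold in the SKM-1 contrast (log2 difference -1.81, adjusted p = 0.0533), and its highest SKM-1 value, 24354, lay under the lowest of the other lines, 33751. Leaving out any library of MOLM-14 or NOMO-1 removed all of these calls, with 0 to 8.69% of all genes called in the SKM-1 contrast and 0 to 4.30% in the other. Leaving out the SKM-1 control library gave 4 members higher and 17 lower in SKM-1, beside 16.2 and 16.7% of all genes. With its NCAM1 shRNA library left out, the SKM-1 log2 differences were 1.22 for NDUFV3, 1.23 for MT-CYB and 0.64 for MT-CO2. With its control library left out they were 1.15, 0.69 and 0.67, in the same order. SKM-1 has 1 library in these fits, so the differences do not show whether a call held. Leaving out either SKM-1 library gave 8 members higher and 11 lower in MOLM-14 against NOMO-1, beside 15.4 and 18.1% of all genes.

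**Figure D5:**
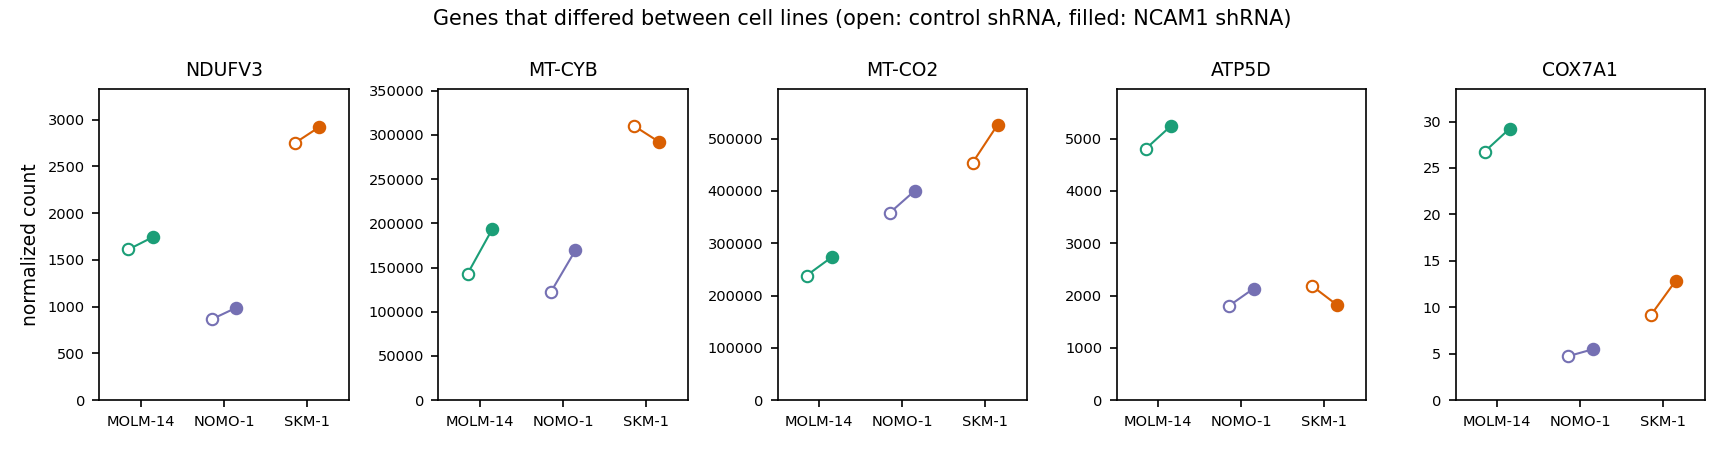
Normalized counts (linear axis from 0) of the 5 genes called between cell lines, in all 6 libraries (open control shRNA, filled NCAM1 shRNA, joined within a line). NDUFV3, MT-CYB and MT-CO2 are highest in SKM-1 in both libraries, and ATP5D and COX7A1 are highest in MOLM-14.

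Genes that build or serve the chain were described from lists of the same kind. The 75 tested genes of the mitochondrial ribosome, which translates the mitochondrial members, had medians of -0.17 in SKM-1 (23 higher), 0.13 in MOLM-14 (62 higher) and 0.36 in NOMO-1 (68 higher), the same order of signs as the nuclear members. MRPL1 was higher in each line (1318 and 1817, 1486 and 2682, 1138 and 1695) and MRPS27 lower in each (9257 and 7704, 5671 and 3686, 7535 and 2938). Between lines, limma called 2 of the 75, MRPS6 and MRPL40, higher in SKM-1 (7.94% of all genes) and 4 lower (8.69%), MRPL42 and MRPS35 by the largest differences. No gene of any list was called for NCAM1 shRNA.

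Assembly factors differed by complex. Those of complex I (15 genes) had medians of 0.15 for MOLM-14, 0.29 for NOMO-1 and -0.32 for SKM-1 and those of complex III (6 genes) 0.02, 0.09 and -0.48, whereas the 21 of complex IV had 0.03, 0.26 and 0.02. In SKM-1 LYRM7, which matures the Rieske protein, stood at 4021 and 1684, and NUBPL, which serves iron-sulfur clusters of complex I, at 519 and 164, while SDHAF2, which attaches the flavin to SDHA, stood at 258 and 548. SDHA and SDHAF2 thus had opposite differences in SKM-1. ATPAF1, which helps assemble the beta subunit, was lower in MOLM-14 than in NOMO-1 by 1.64 (log2 difference -1.64, limma adjusted p = 0.0305).

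Of 21 genes of mitochondrial transcription and mRNA stability, 6 were higher in SKM-1, 17 in MOLM-14 and 20 in NOMO-1. TFAM, which packages and transcribes mitochondrial DNA, stood at 5885 and 6912, 5284 and 7566, and 5108 and 5448, and limma called TFB2M, a transcription factor of the mitochondrion, higher in MOLM-14 than in NOMO-1 (log2 difference 1.49, adjusted p = 0.0304). Of 10 nuclear regulators, NRF1 stood at 1300 and 1097 in SKM-1 and GABPA at 2640 and 2048. PPARGC1A, a coactivator of mitochondrial genes, stood at 0 and 6.26 in MOLM-14, 22.7 and 30.1 in NOMO-1 and 513 and 66.1 in SKM-1, and MYC at 30769 and 25149, 12127 and 9599, and 19954 and 7770. Neither passed limma's test (adjusted p = 0.98 for PPARGC1A and 0.78 for MYC).

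The 13 genes of the citric acid cycle, the source of the chain's electrons, did not show the same signs, with medians of -0.05 for MOLM-14, -0.03 for NOMO-1 and 0.09 for SKM-1. CS, citrate synthase, was lower in SKM-1 than in the other lines (log2 difference -1.05, limma adjusted p = 0.0389) and MDH2, malate dehydrogenase, was lower in SKM-1 (-0.76, adjusted p = 0.0352) and in MOLM-14 against NOMO-1 (-1.38, adjusted p = 0.0136). HIGD1A, a supercomplex factor, was higher in each line, at 1282 and 1638, 1395 and 3030, and 2294 and 5018, a log2 difference of 0.87 that had an adjusted p of 0.78 in limma.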

How the data were processed

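RNA was measured in 6 libraries, 3 cell lines with a control and an NCAM1 shRNA library each. The signal values used are read counts per gene scaled by the authors with a size factor for each library. The deposited log2 values, a transformation by the authors, served as an alternative. Per the submitters' processing notes, HTSeq 0.6.1p1, STAR, DESeq2 1.12.4, bcl2fastq 1.8.4 and hg19 were used. No source used here names the annotation or strand setting, so overlapping genes cannot be told apart. Dividing each column by its smallest step gave whole reads for 100% of values (tolerance 0.001), and DESeq2 and edgeR ran on those reads.

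Genes with a mean of 10 or more (19575) were tested with limma 3.58.1 in R 4.3.3 on log2(normalized count + 1), which understates differences of low genes. The two-sided fit (lmFit, eBayes with trend) held all 6 libraries, a knockdown term and the cell line as block, with 2 residual and 2.81 prior degrees of freedom. Calls needed a Benjamini-Hochberg adjusted p under 0.05 over all genes. The fit was tested on simulated data. No label says whether a line's libraries came from separate cultures. The p-values measure the spread left between these libraries after the line and a shared knockdown term. That spread is how far the knockdown difference varied between lines. In the line contrasts, a line's control and NCAM1 shRNA libraries stand as its replicates. Libraries are paired by cell line, and their deviations from group means correlated at 0.850, 0.863 and 0.710. Within a line, 1.5-fold served as the mark, with exact conditional 95% intervals that cover counting error only. Alternatives were edgeR 4.0.16, DESeq2 1.42.0, other pseudocounts, filters and scalings, and leaving out libraries. Members, lists and tests were chosen with earlier results of these data known. Named genes are all mitochondrial and SDH genes, the 2 nuclear genes of smallest p per complex, called genes, the 3 furthest up and down per line, tissue isoforms, ATP5G genes and the leading genes of each list. Others were chosen after their values were seen. Transcript lengths and overlaps came from GENCODE v29 (GRCh38) and promoters from RefSeq (GRCh38.p14), a later build than the files', and no coordinates of the files were used.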

Additional observations from a re-analysis of the deposited data

Results flagged for a closer look

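In SKM-1 the median log2 difference between NCAM1 shRNA and control was of opposite sign to that in both other lines for all nuclear members (-0.26), and for those of complex I (-0.18), complex III (-0.48), complex IV (-0.42) and complex V (-0.24). The difference between lines was not tested, since each line has 1 library per condition. SKM-1 also had the largest fold difference of NCAM1 itself, and the extent of depletion and the line cannot be told apart.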

How the results depend on the processing

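No member was called between NCAM1 shRNA and control in any of the 14 alternatives run for that count, including the fit with no replicate block, and the block changed no call. The share of all genes called was also 0% in each, except for 0.22% with DESeq2. These counts therefore cannot set the members apart from other genes. The medians moved by less than the spread between lines in the alternatives run, but their signs turned with a line left out. The nuclear median, 0.04, was -0.02 without MOLM-14, -0.05 without NOMO-1 and 0.18 without SKM-1; the mitochondrial one, 0.04, was -0.04, 0.06 and 0.11; and the ratio, 0.09, was 0.09, 0.19 and -0.02. The line contrasts did depend on the setting, and so did the share of all genes called: for either direction 20.9% with DESeq2, 10.3% with edgeR and 0 to 33.5% with a library left out in MOLM-14 against NOMO-1, and 24.4, 13.2 and 0 to 32.9% in the SKM-1 contrast. Members called higher in MOLM-14 than in NOMO-1 numbered 4 with DESeq2 in place of 2, and 1 with edgeR, a mean of 50, no filter, a pseudocount of 0.5 or either total-count scaling; leaving out 1 library gave 0 to 8. Members called lower numbered 3 with DESeq2 in place of 0, and 0 to 11 with a library left out. Members called higher in SKM-1 numbered 11 with DESeq2 in place of 3, and 1 with edgeR, no trend, no filter or a 2-fold minimum, and 0 to 8 with a library left out. Members called lower in SKM-1 numbered 7 with DESeq2 in place of 0, and 0 to 17 with a library left out. The cause was not tested. Depth limits the low genes most: COX6B2 has 1 to 51 reads per library and COX7A1 5 to 28.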

Other observations

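The mitochondrial ribosomal RNAs, which are not protein-coding and so not among the members, were lower after NCAM1 shRNA in SKM-1. MT-RNR2, the large ribosomal RNA, stood at 405784 and 361335 normalized counts in MOLM-14 (control, then NCAM1 shRNA), 702112 and 574108 in NOMO-1 and 351197 and 210004 in SKM-1, and its level was lower in SKM-1 than in the other lines (log2 difference -0.86, limma adjusted p = 0.0444). MT-RNR1, the small one, stood at 28583 and 29317, 43504 and 37740, and 47276 and 23067. MT-RNR2 counts per MT-CO1 count were 0.673, 1.02 and 0.399 in the controls and 0.612, 0.890 and 0.267 after NCAM1 shRNA, lower in each line. Neither RNA passed limma's test for NCAM1 shRNA (adjusted p = 0.78). The kit is known to select polyadenylated RNA, so the level of ribosomal RNA also depends on that step, whose part was not tested.

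Copies of the members carry reads as well. Of the 44 pseudogenes left out, 15 had a mean of 10 or more. COX6A1P2 had a mean of 1434 normalized counts, more than the 836 of its parent COX6A1, and COX7CP1 stood at 189 and 42.2 in SKM-1, lower after NCAM1 shRNA as was COX7C. MTATP6P1, a nuclear copy of mitochondrial DNA, stood at 220 and 399, 515 and 658, and 650 and 402, and its counts were 0.114 to 0.178% of those of MT-ATP6. Reads of a parent and its copy cannot be told apart where the sequences are the same.

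Exon overlap on the same strand went with low levels. Overlap with genes on the other strand was not part of this comparison. The members not counted as overlapping therefore include ATP5I and NDUFS7, which share 61.6 and 49.1% of their exon bases with genes on the other strand. The 14 nuclear members that share over 10% of their exon bases with another gene on the same strand had a median of 726 normalized counts per kb, against 3882 for the other 66, and 6 of the 10 nuclear members with the lowest level per kb were among them. Their median log2 differences were 0.16, 0.13 and -0.35 in MOLM-14, NOMO-1 and SKM-1, against 0.12, 0.21 and -0.24 for the others.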
